A study of Triticum aestivum with 24 samples.

Results

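The wheat genes described here have identifiers that begin with TraesCSU02G and are placed on no chromosome. A gene was taken as a member where its normalized count reached 10 in at least 3 of the 24 libraries, a rule that uses levels and no difference between groups. The deposited table lists 107891 gene identifiers, of which 2691 begin this way, and 820 of these were members. Another 1192 were at 0 in every library, and 679 were above 0 but missed the rule. The members were thus 30.5% of the unassigned identifiers, whereas 55.7% of all identifiers met the same rule and 52.4% to 64.0% did on each of the 21 chromosomes. At the edge of the rule, the third-highest value was 10.05 for TraesCSU02G050800 and 10.07 for TraesCSU02G030400, just inside, and 9.893 for TraesCSU02G267600 and 9.859 for TraesCSU02G128700, just outside. Since 3 libraries also make up a group, a gene could become a member through the group where it was high.

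Bread wheat is a hexaploid whose subgenomes A, B and D each have their own chromosomes. When its genome was assembled, scaffolds that could not be anchored to a chromosome were kept together as an unassigned set, and such leftovers are commonly rich in repeats and in sequence that is nearly identical to another place in the genome. Gene models were predicted on these scaffolds as on the chromosomes, so the label says where a gene could not be placed and not what it does. The identifiers matched no entry of the table of named wheat genes used here, so no name, role, sequence or position is given to any of them.

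Leaf RNA came from Fielder, a spring wheat that served as wild type (WT), and from 3 TOR expression lines transformed in it, UBQ/TOR, DREM/TOR and DEH2/TOR, here UBQ, DREM and DEH2. The TOR kinase, named for the drug rapamycin, couples nutrient and energy supply to growth. The sources used here do not say what the construct prefixes stand for, or whether a line is 1 transformation event. Each genotype has 3 well-watered libraries (80% field capacity) and 3 libraries of drought-treated plants, for which water was withheld for 12 days from an age of 4 weeks. They do not state the day of sampling either. Nor do the labels say that replicates were different plants, and p-values therefore measure a spread between libraries that may be technical.

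Summed normalized counts were 32479689 to 54437012 per library, from about 33700000 to 55300000 reads as estimated from the step that 1 read makes. Across the member genes, libraries of a group correlated at r = 0.940 to 0.963 on the log2 scale in 20 pairs. In the 4 pairs that include WT drought replicate 1 or DEH2 well-watered replicate 1, r was 0.868 to 0.935. These 2 libraries stand apart from their sister libraries, and drought results are given without them unless stated. Some groups also go against their genotype labels on placed chromosomes, in regions known from earlier results of these data. For 210 genes at the start of chromosome 1B, the median log2 deviation from the regime's median group was -5.0 for DEH2 well-watered and -4.95 for DREM drought, while DREM well-watered (0.1) and DEH2 drought (0.18) were near 0. On chromosome 2A, 1470 genes were at -0.78 in the UBQ well-watered group and at -0.71 in the WT drought group. In UBQ drought 240 genes at the start of 6B were at -4.1 and 120 genes of 4B at 0.76, and the remaining groups were near 0 in these 3 regions. Every comparison of water regimes below includes a group with such a region, so none can be given without them, and the genotype names are the labels of the libraries.

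The unassigned genes drew fewer reads than most genes, with a few exceptions that drew very many. The median member had a mean normalized count of 79.12 over the 24 libraries (quartiles 18.75 and 355.4), against 149.8 for all 60088 genes that met the rule and 132.2 to 199.2 on single chromosomes. A mean of at least 1000 was reached by 86 members, which is 10.5% against 12.8% of all genes. At 10000 or more there were 9 members, 1.1% against 0.8%. Expression in every library was less common: 423 members (51.6%) had at least 10 in all 24 libraries, against 70.5% of all genes. Steady levels were less common too, since 97 members (11.8%) stayed within 2-fold over the 22 libraries without those that stand apart, against 17.8%. Gene lengths are not known here, so these values say how many reads a gene took and not how many transcripts it made.

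The 6 members with the most reads held 42.0% to 64.8% of the members' sum in the 22 libraries (median 52.4%), 69.1% in DEH2 well-watered replicate 1 and 89.8% in WT drought replicate 1. TraesCSU02G056800, TraesCSU02G249800 and TraesCSU02G263900 varied widely between replicates of some groups, TraesCSU02G049400 and TraesCSU02G167700 differed between water regimes in every genotype, and TraesCSU02G270000 had similar values throughout.

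**Figure D1:**
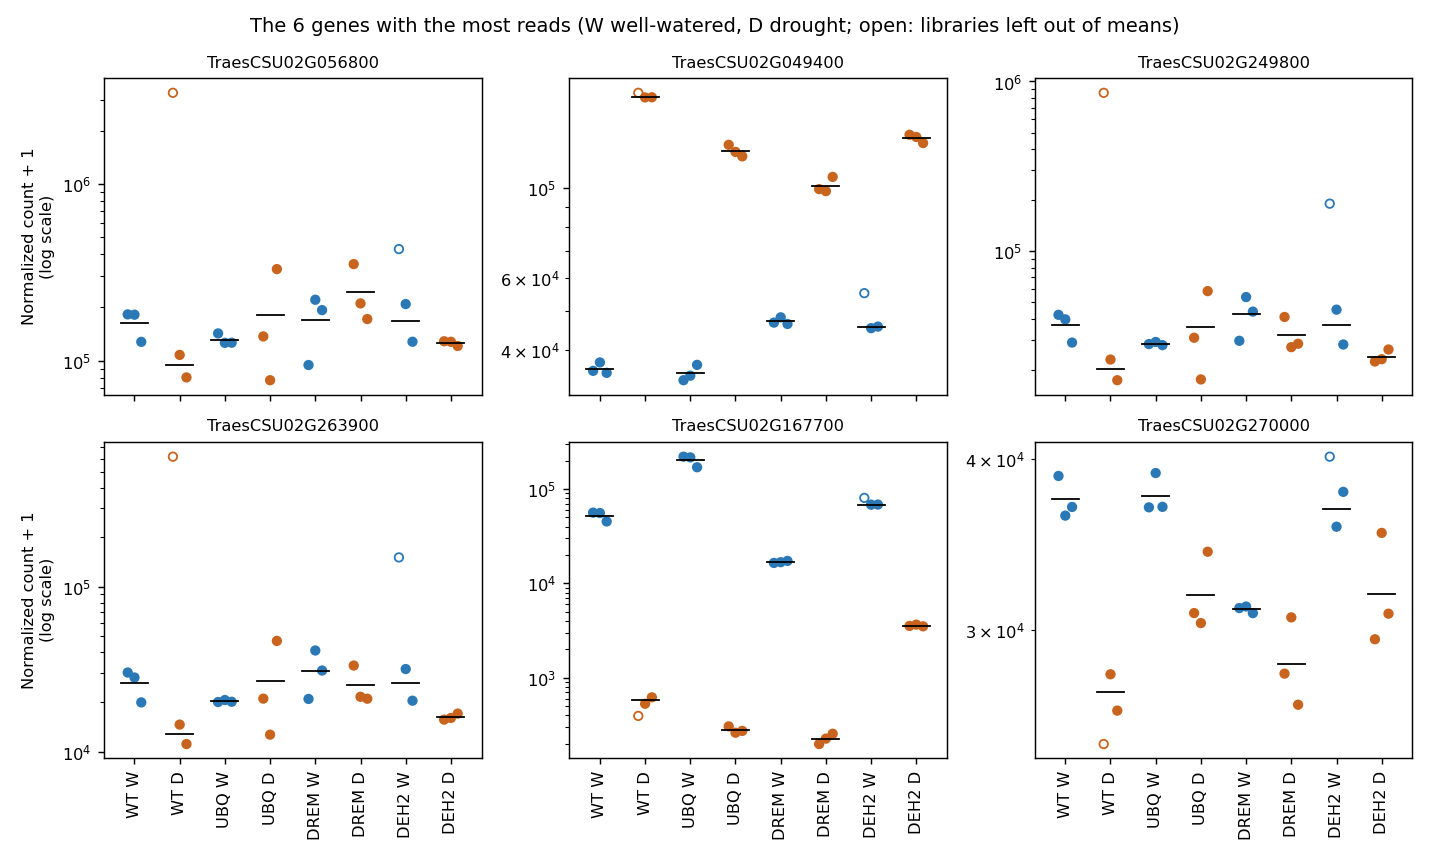
Normalized count plus 1 on a log axis for the 6 members with the most reads, by group (blue W, well-watered; orange D, drought), 1 point per library; bars are group means without the 2 open points, WT drought replicate 1 and DEH2 well-watered replicate 1. TraesCSU02G049400 is higher and TraesCSU02G167700 lower in all drought libraries. The open points lie above their groups for TraesCSU02G056800, TraesCSU02G249800 and TraesCSU02G263900. In WT drought they are 30.4, 37.4 and 42.1 times the higher sister, and in DEH2 well-watered 2.05, 4.22 and 4.75 times.

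TraesCSU02G049400 rose with drought in all 4 genotypes. Well-watered values were 35621.2, 37357.5 and 35226.9 for WT, 33790.5, 34663.0 and 36850.4 for UBQ, 46756.7, 48171.6 and 46403.9 for DREM, and 45316.9 and 45715.6 for DEH2. Drought values were 166482.8 and 166652.3 for WT, 127450.3, 122455.5 and 119423.4 for UBQ, 99272.7, 98154.7 and 106362.4 for DREM, and 134873.5, 133208.2 and 128727.0 for DEH2. No drought library overlapped a well-watered one, and replicates of a group differed by at most 1.09-fold. The log2 change was 2.21 ± 0.040 (SE) for WT, 1.81 ± 0.036 for UBQ, 1.10 ± 0.036 for DREM and 1.54 ± 0.040 for DEH2, each past the threshold of limma with Benjamini-Hochberg adjustment over all genes (largest adjusted p = 3.01e-22). The rise was smaller than in WT by 0.40 in UBQ, 1.10 in DREM and 0.67 in DEH2 on the log2 scale (limma adjusted p for the difference 2.54e-07, 6.38e-17 and 2.54e-11). The library left out of WT drought had 170892.4, close to its sisters.

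TraesCSU02G167700 fell in all 4 genotypes and had the widest range of the 6. Well-watered values were 56149.7, 55632.8 and 45288.5 for WT, 220044.3, 216283.7 and 169876.3 for UBQ, 16461.6, 16767.8 and 17303.3 for DREM, and 68173.9 and 68353.3 for DEH2. Drought values were 529.2 and 619.3 for WT, 304.5, 260.8 and 272.6 for UBQ, 197.5, 225.6 and 254.3 for DREM, and 3541.0, 3654.9 and 3506.9 for DEH2. Drought and well-watered libraries lie far apart, and the well-watered groups also differ, with UBQ highest and DREM lowest. The log2 change was -6.51 ± 0.12 for WT, -9.49 ± 0.11 for UBQ, -6.22 ± 0.11 for DREM and -4.26 ± 0.12 for DEH2 (limma, largest adjusted p = 1.76e-14). Against WT, the fall was larger in UBQ by a log2 difference of -2.98 (limma adjusted p = 2.46e-10) and smaller in DEH2 by 2.25 (2.31e-08). In DREM the difference from WT of 0.28 ± 0.17 did not pass (adjusted p = 0.19).

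TraesCSU02G270000 kept within 1.49-fold over the 22 libraries, between 26210.7 and 39086.9. Log2 changes in drought were -0.47 ± 0.066 for WT, -0.24 ± 0.059 for UBQ, -0.14 ± 0.059 for DREM and -0.21 ± 0.066 for DEH2 (limma adjusted p = 2.23e-06, 0.000867, 0.0455 and 0.00819). When each library is scaled to the same sum in place of the authors' scaling, the values turn to 0.324 in UBQ, 0.363 in DREM and 0.164 in DEH2, and WT is at -0.168 and no longer passes, so the direction rests on the scaling. The DREM call was also lost in 12 other settings, with values of -0.141 to -0.088.

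TraesCSU02G056800 ranked 5 among all genes by its mean over the 22 libraries, 162591.5, and did not pass in any genotype. In well-watered libraries it had 182726.9, 181919.0 and 127769.4 for WT, 142595.1, 126080.0 and 126305.8 for UBQ, 94450.1, 221003.3 and 193072.1 for DREM, and 208950.8 and 127934.2 for DEH2. In drought it had 107764.6 and 80365.3 for WT, 137108.7, 77511.8 and 329515.6 for UBQ, 351673.5, 210762.1 and 171904.7 for DREM, and 128702.1, 127841.2 and 121056.5 for DEH2. The regimes overlap in UBQ, DREM and DEH2, and within UBQ drought the highest library is 4.25 times the lowest. Log2 changes were -0.80 ± 0.50 for WT, 0.21 ± 0.44 for UBQ, 0.55 ± 0.44 for DREM and -0.38 ± 0.50 for DEH2 (limma adjusted p = 0.183, 0.687, 0.281 and 0.52). With each library scaled to the same sum, the DREM value of TraesCSU02G056800 was 1.052 and passed. TraesCSU02G249800 and TraesCSU02G263900 did not pass either, with smallest adjusted p of 0.07 and 0.0531, both in WT, where they were at -0.87 ± 0.39 and -1.01 ± 0.43. These WT values passed in 2 and 6 of the alternatives, and with all 24 libraries they turned to 0.942 and 0.853 and did not pass.

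The other 3 members above a mean of 10000 fell with drought throughout (chosen here after their values were seen). In WT, TraesCSU02G063400 went from 33618.2 ± 2089.7 (SD, n = 3) to 5043.1 ± 119.0 (n = 2), TraesCSU02G077300 from 31996.3 ± 1920.0 to 9391.0 ± 310.9 and TraesCSU02G130400 from 22956.7 ± 1055.3 to 7554.6 ± 62.61. Log2 changes over the 4 genotypes ran from -2.74 to -1.73 for TraesCSU02G063400, from -3.17 to -1.76 for TraesCSU02G077300 and from -5.38 to -1.60 for TraesCSU02G130400, all past the threshold of limma. For TraesCSU02G130400 the fall was deepest in UBQ, where drought values were 762.0, 658.8 and 663.7 after 28923.0, 29546.6 and 27956.8.

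The members' share of each library was small, apart from WT drought replicate 1. Over the 22 libraries without the 2 that stand apart, the members held 1.23% to 2.60% of the summed normalized counts (median 1.62%), against a median of 3.30% to 5.91% for single chromosomes. In WT drought the shares were 10.13%, 1.646% and 1.558%, and in DEH2 well-watered 2.552%, 1.631% and 1.411%, replicate 1 first. UBQ drought had 1.875%, 1.637% and 2.583%, and DREM drought 2.596%, 2.102% and 1.960%, so a library of each of these groups reached the level of DEH2 well-watered replicate 1. The 95% Wilson interval of each share is at most 0.0095 points to either side, for counting error only.

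**Figure D2:**
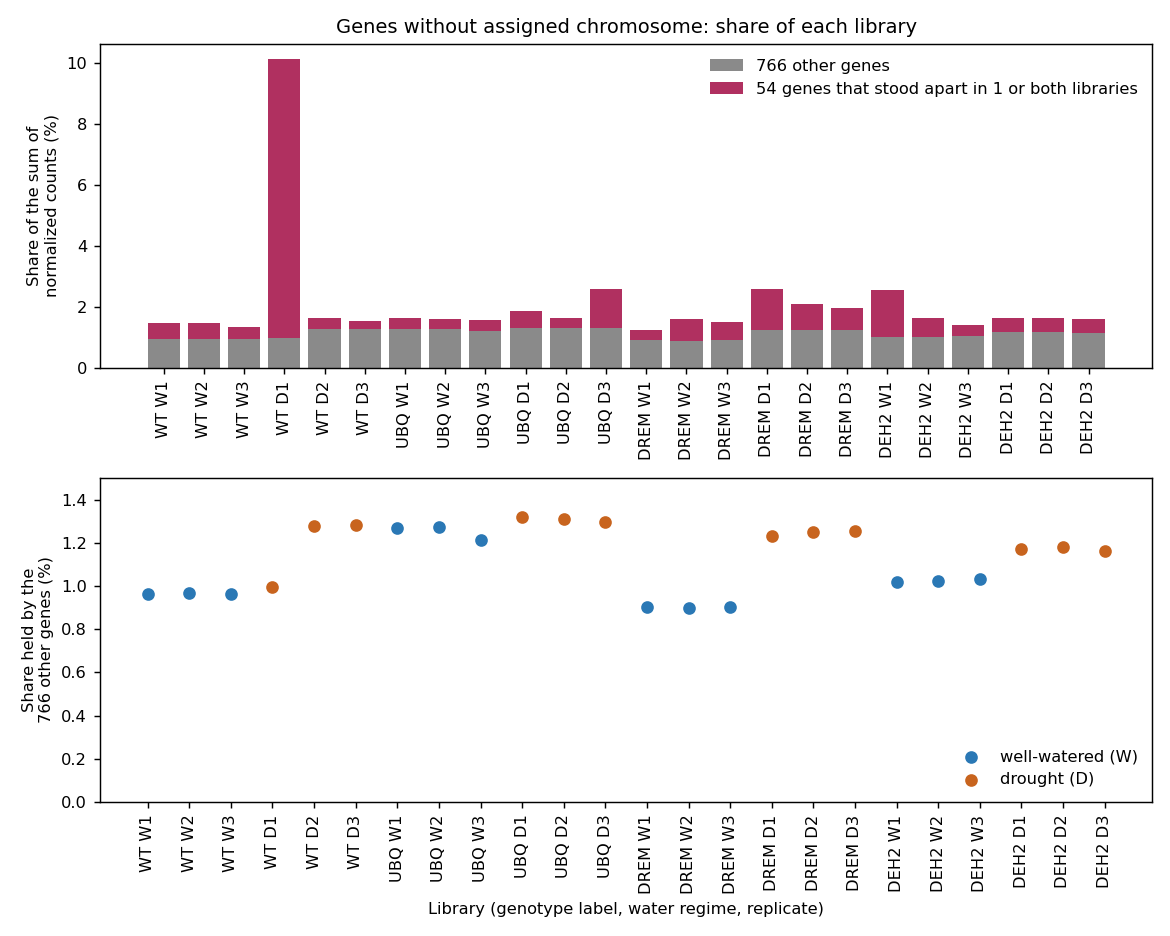
Upper plot, percent of each library's summed normalized counts held by members, divided into the 54 that were 4-fold or more above both sister libraries in WT drought replicate 1 or DEH2 well-watered replicate 1 (red) and the 766 others (grey). Lower plot, the share of the 766 others alone, by water regime (blue W, orange D); WT drought replicate 1 reaches 10.13% through the red part, while the grey part stays between 0.897% and 1.32% in the 22 other libraries.

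In the 22 libraries the members' share was higher in drought by 0.37 percentage points within genotypes, from a mean of 1.5% to 1.9% (exact stratified permutation test over 40000 assignments, two-sided, p = 0.00015). By genotype it was 0.176 points for WT, 0.425 for UBQ, 0.766 for DREM and 0.111 for DEH2 (exact permutation p = 0.1, 0.2, 0.1 and 0.3, where 0.1 is the smallest value these group sizes allow). With all 24 libraries the difference was 0.995 points (exact permutation p = 0.0366). The members' own sum was not higher: it averaged 754103 in well-watered and 689310 in drought libraries, 8.59% lower, while the sum of all identifiers was 26.8% lower and that of the 50 most abundant genes 67.6% lower. With these 50 genes, 3 of them members, removed from both parts of the ratio, the members' share was lower in drought by 0.16 points (1.23% to 1.08%, exact permutation p = 0.00282), the opposite direction. The 50 were ranked over all 24 libraries, and the 3 members include TraesCSU02G049400, which rose with drought in every genotype. Without the 6 members with the most reads, the share was still higher in drought, by 0.113 points (0.741% to 0.856%, exact permutation p = 2.5e-05). The 766 members outside the 2 libraries' lists gave 0.215 points, a value with no test because their choice used these libraries, and in each genotype their drought shares lay above the well-watered ones.

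WT drought replicate 1 differed from its sisters in a small set of members, as well as in genes on the chromosomes. In it 51 members, 6.22%, were at least 4-fold above both sister libraries (value plus 1), against 0.476% of all genes tested and 0.0857% to 0.816% on single chromosomes. Another 10 (1.22%) were 4-fold below both (0.434% of all genes). In DEH2 well-watered replicate 1, 25 members, 3.05%, were above (0.165% of all genes) and 9, 1.1%, below (0.243% of all genes). Treated the same way, the 22 other libraries had 0 to 14 members above both sisters (0% to 1.71%), against 0.0682% to 0.346% of all genes. The members' share was above that of all genes in each of them but DREM drought replicate 2, and in UBQ drought replicate 3 it was 1.71% against 0.128%. Below both sisters these 22 libraries had 4 to 18 members, a range that includes the 10 and the 9. With 1 library against 2 there is no test of this difference. The members were set by all 24 libraries, including the 2 that stand apart. By the 22 others alone, 806 of the 820 members and 59811 of all 60088 genes meet the rule. The other 14 members thus met it only through 1 or both of these 2 libraries, and the shares above both sisters may include them. These shares were not counted again without the 14. The 51 members held 9.14% of all normalized counts in WT drought replicate 1, and 0.366% and 0.275% in its sisters. The 25 members held 0.716% in DEH2 well-watered replicate 1, and 0.173% and 0.110% in its sisters.

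**Figure D3:**
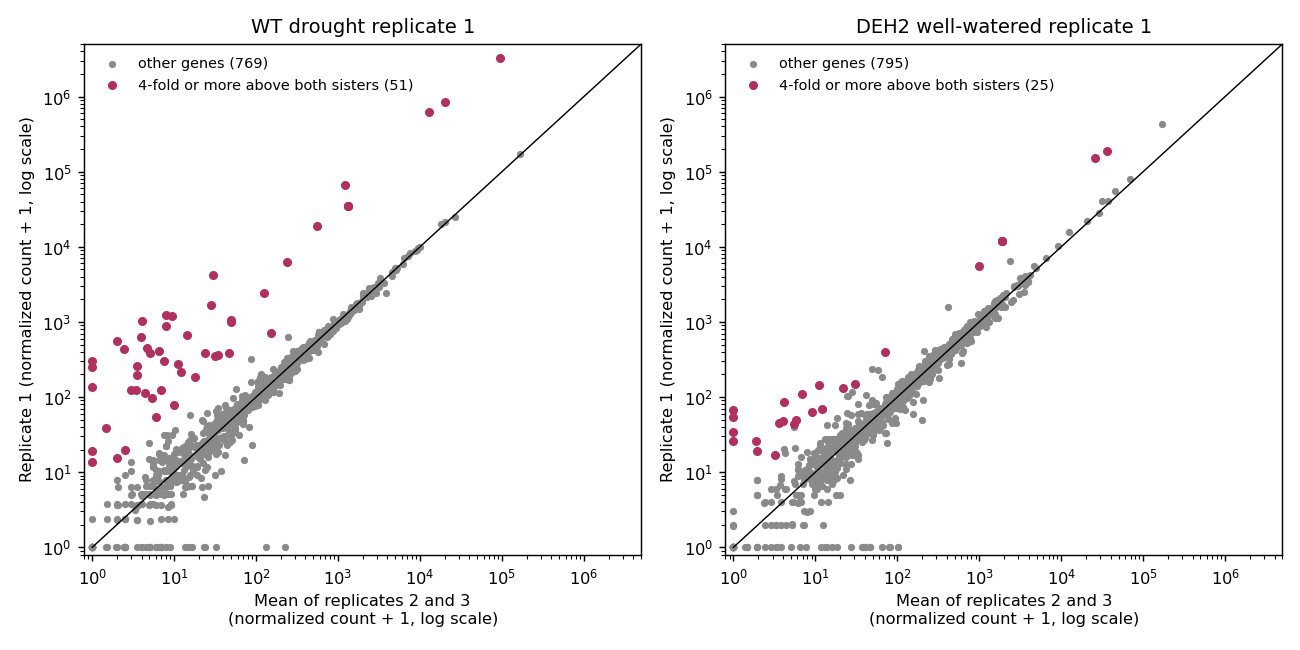
Each point is a member, with the mean of replicates 2 and 3 on the horizontal axis and replicate 1 on the vertical axis (normalized count plus 1, both log scales), for WT drought (left) and DEH2 well-watered (right). Red points are at least 4-fold above both sisters, 51 on the left and 25 on the right; most other points follow the line of equal values.

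TraesCSU02G056800 had 3273991.4 in WT drought replicate 1, 30.4 times the higher sister, and alone took 6.02% of the library. TraesCSU02G249800 had 857692.9 against 22939.8 and 17325.8, TraesCSU02G263900 had 615772.6 against 14612.4 and 11134.9, and TraesCSU02G263800 had 65951.6 against 1304.1 and 1095.5. These 4 had the largest excess in value and were 30.4 to 50.6 times the higher sister. The largest shortfalls in value there were those of TraesCSU02G270000, with 24777.0 against 27863.0 and 26210.7, and TraesCSU02G186800, with 2407.3 against 3937.2 and 3715.2.

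In DEH2 well-watered replicate 1 the same 3 genes led in value. TraesCSU02G056800 had 427695.1 against 208950.8 and 127934.2, TraesCSU02G249800 had 190394.8 against 45152.6 and 28130.9, and TraesCSU02G263900 had 150803.4 against 31727.3 and 20395.9. The fourth, TraesCSU02G167700, had 80446.9 against 68173.9 and 68353.3, 1.18 times the higher sister. On the lower side stood TraesCSU02G133200 with 2505.0 against 3511.6 and 3538.0, and TraesCSU02G181400 with 2322.6 against 2990.2 and 3173.5.

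The lists of these 2 libraries share 22 members, 43.1% of the 51 and 88.0% of the 25. Of the 51, 47 were above the mean of the sisters in DEH2 well-watered replicate 1 as well, with a median log2 excess of 2.37, against 5.29 in WT drought replicate 1. The remaining members had median excesses of 0.0 and 0.006. In the other libraries 32 of the 51 were low, with a median under 30, and 7 had a median of at least 1000. Their replicates also varied more within groups: the median ratio of highest to lowest replicate was 1.33 to 3.65 for the 51, by group and without the 2 libraries, and 1.14 to 1.29 for the other members. The 51 varied most in UBQ drought (3.65) and DREM well-watered (2.38).

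Most of the 51 have identifiers with high numbers. Of the 63 members numbered 250000 to 274999, 37 were in the list of WT drought replicate 1 (58.7%), as were 5 of the 31 numbered 225000 to 249999. The remaining 726 members held 9, among them TraesCSU02G056800. TraesCSU02G249800 and TraesCSU02G263900 kept nearly the same proportion, at a ratio of 1.23 to 1.57 in the 22 libraries and of 1.39 and 1.26 in the 2 that stand apart. The ratio of TraesCSU02G056800 to TraesCSU02G263900 was 4.52 to 10.6 in the 22, 5.32 in WT drought replicate 1 and 2.84, below that range, in DEH2 well-watered replicate 1. The other genes 4-fold above their sisters in WT drought replicate 1 were 235 of 59268 on the chromosomes (0.397%), and all 286 together held 22.3% of that library. The members made up 40.9% of what the 286 held, and genes on the chromosomes the larger rest.

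Some members could not be told apart by their values. In 10 sets, 21 members had values within 5% of each other in all libraries, and TraesCSU02G265300, TraesCSU02G265500 and TraesCSU02G267800 differed by at most 0.532%. TraesCSU02G265300 had 34781.0 in WT drought replicate 1 against 1487.3 and 1174.4, and 11935.6 in DEH2 well-watered replicate 1 against 2389.0 and 1400.6. Reads of near-identical copies can be divided between genes by the authors' quantification, so values of such members are uncertain one by one.

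Drought changed many members in each genotype, and calls in both directions together were a smaller share than of all genes. In WT, 176 members rose (21.5%, against 29.5% of all genes tested) and 225 fell (27.4%, against 30.3%), by limma at an adjusted p under 0.05. For UBQ 259 rose (37.8% of all genes) and 289 fell (36.1%), for DREM 238 rose (35.9%) and 251 fell (34.2%), and for DEH2 200 rose (33.7%) and 276 fell (33.6%). The members' shares for these 3 were 31.6% and 35.2%, 29.0% and 30.6%, and 24.4% and 33.7%. The median log2 change over members was -0.152 for WT, -0.039 for UBQ, 0.0 for DREM and -0.132 for DEH2, beside -0.011, 0.033, 0.031 and 0.008 over all genes. A called change of at least 2-fold was found for 211, 357, 321 and 321 members, which is 25.7%, 43.5%, 39.1% and 39.1% against 28.7%, 43.5%, 37.9% and 38% of all genes. At that size the members' share was thus below that of all genes in WT alone.

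The balance of higher and lower calls rests on the scaling. With every library scaled to the same sum, 258 members rose and 155 fell for WT, 379 and 190 for UBQ, 360 and 172 for DREM, and 290 and 218 for DEH2. That scaling moved the median of all genes by 0.286, 0.552, 0.489 and 0.366 on the log2 scale. Calls by direction over all genes were not counted under it, here or below, so these counts show no trait particular to the members. In these libraries fewer cells of a type and less RNA per cell cannot be told apart.

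**Figure D4:**
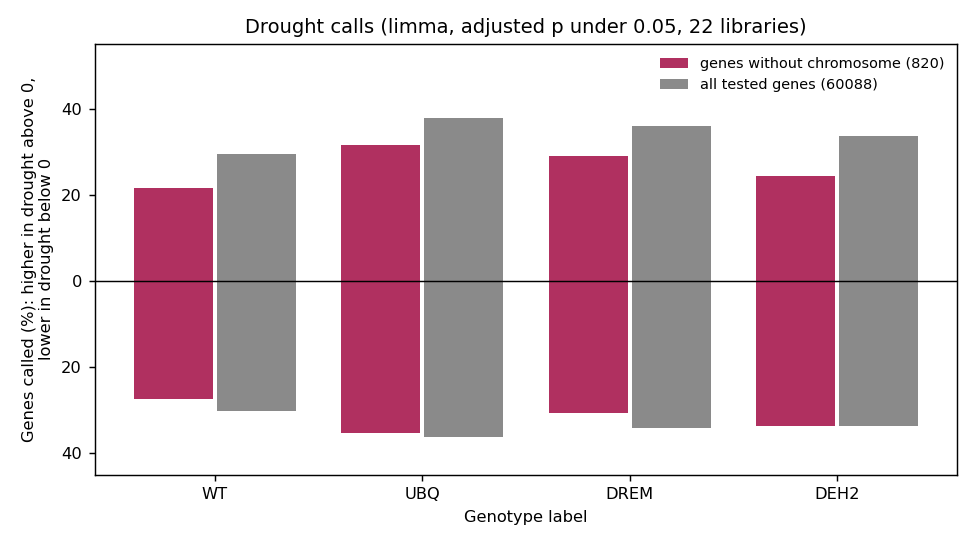
Percent of the 820 members (red) and of all 60088 genes tested (grey) called higher (above 0) or lower (below 0) in drought in each genotype by limma at an adjusted p under 0.05, over 22 libraries. The red bars are shorter than the grey ones for higher calls in all 4 genotypes, with 21.5% against 29.5% in WT.

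Members with more reads were called more often. In WT 30% of the 290 members with a mean under 30 were called, 57.2% of the 444 members between 30 and 1000, and 69.8% of the 86 members at 1000 or more. In UBQ the percentages were 46.2, 77.0 and 83.7, in DREM 42.1, 66.0 and 86.0, and in DEH2 40, 67.3 and 70.9. All genes were not divided into these classes, so the rates are not shown to be particular to the members. Of the 54 members that stood apart in either library, 41 were not called for WT, 42 for UBQ, 39 for DREM and 45 for DEH2, which is 75.9%, 77.8%, 72.2% and 83.3%. Not called among the 766 other members were 49.3%, 30%, 38.1% and 39%, and among all genes 40.2%, 26.1%, 29.9% and 32.8%.

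Across the genotypes 79 members were higher in drought in all 4 (9.63%, against 16.0% of all genes) and 106 lower in all 4 (12.9%, against 16.7%). Calls in opposite directions in different genotypes were found for 139 members (17.0%, against 14.8%), and 108 were called in none (13.2%, against 7.9%).

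TraesCSU02G023100 had the largest fall in each of the 4 genotypes. Well-watered values were 3019.6, 2744.7 and 2558.2 for WT, 3958.3, 3949.6 and 3684.3 for UBQ, 2664.5, 2500.1 and 2496.8 for DREM, and 3949.0 and 3898.9 for DEH2. Drought values were 18.71 and 31.65 for WT, 1.533, 0.9187 and 1.403 for UBQ, 0.7019, 6.694 and 3.758 for DREM, and 4.338, 2.048 and 0.8508 for DEH2. Every drought value in the 3 lines was below both WT values used here. The WT drought library left out had 5.484, below the 6.694 of a DREM library. In the lines these values amount to about 0.993 to 10.3 reads, near the 3 reads that a value of 0 allows. Log2 changes were -6.77 ± 0.48 for WT, -10.73 ± 0.43 for UBQ, -9.33 ± 0.43 for DREM and -10.30 ± 0.48 for DEH2 (limma, largest adjusted p = 5.58e-09). The differences from WT were -3.96, -2.56 and -3.53 (adjusted p = 9.94e-05, 0.00467 and 0.000538).

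TraesCSU02G057200 and its neighbours by number rose in all 4 genotypes. TraesCSU02G057200 had 28.85, 24.01 and 14.13 in well-watered and 499.4 and 517.2 in drought WT, a ratio of means of 22.8. The ratio was 5.71 in UBQ, 74.3 in DREM and 62.9 in DEH2, and the log2 changes were 4.50 ± 0.52, 2.51 ± 0.47, 5.99 ± 0.47 and 6.32 ± 0.52 (limma, largest adjusted p = 0.000163). TraesCSU02G057100, chosen after its values were seen, had 449.8, 420.1 and 408.8 in well-watered WT and 4908.3 and 5093.8 in drought. Its well-watered values in UBQ were higher, at 1857.8, 1905.8 and 1659.4, and those in DREM lower, at 184.0, 184.6 and 182.0. Drought values came closer together, from 4443.2 to 7906.5 over the 4 genotypes. TraesCSU02G057000, chosen the same way, changed by 3.49 for WT, 2.09 for UBQ, 4.44 for DREM and 4.15 for DEH2 on the log2 scale, all past the threshold of limma.

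**Figure D5:**
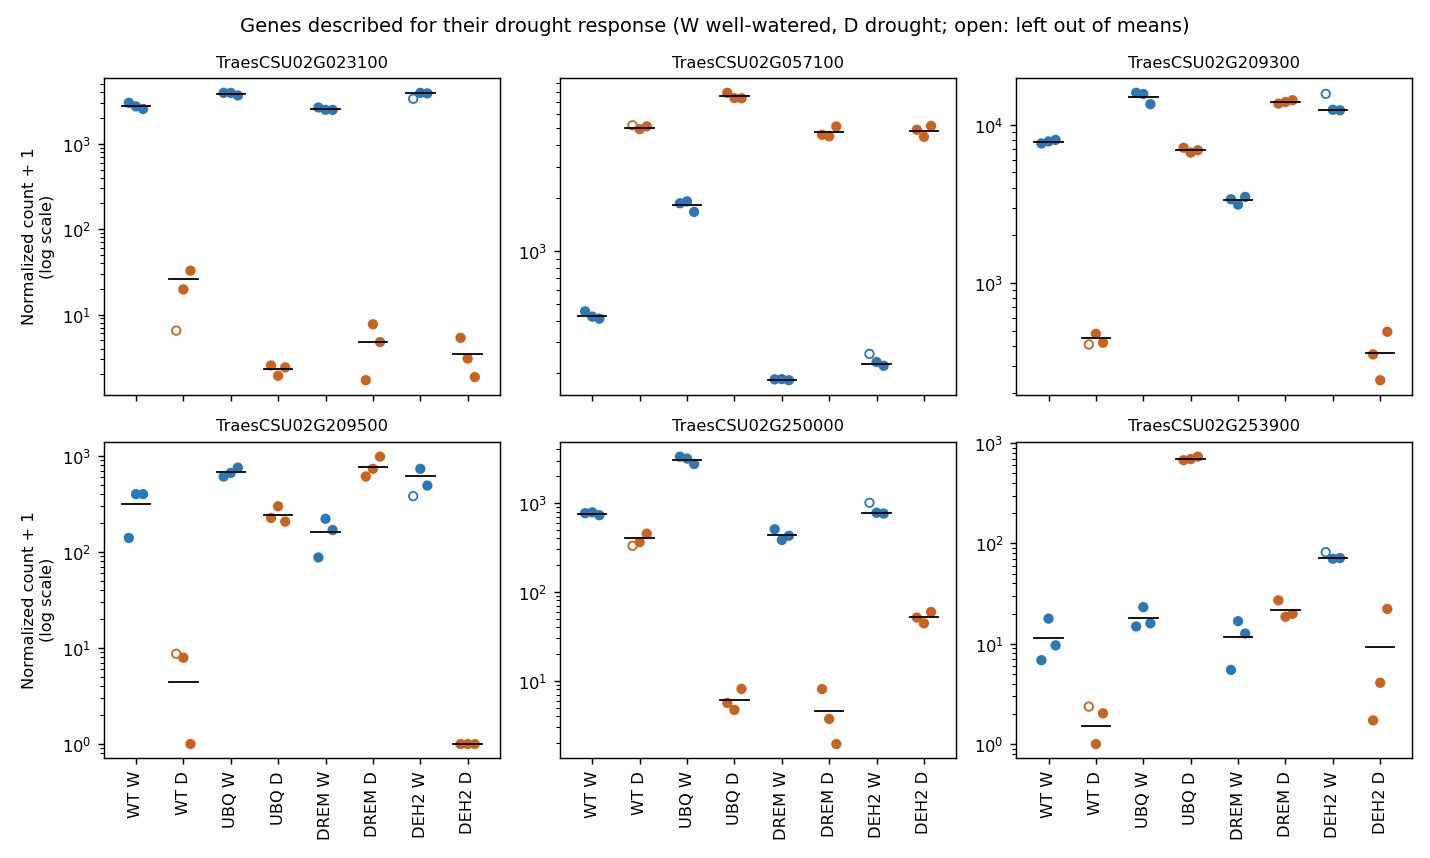
Normalized count plus 1 on a log axis for 6 members described for their drought response, by group (blue W, orange D), 1 point per library; bars are means without the 2 open points, WT drought replicate 1 and DEH2 well-watered replicate 1. TraesCSU02G023100 is lower and TraesCSU02G057100 higher in drought in all genotypes, TraesCSU02G209300 and TraesCSU02G209500 are higher in DREM alone among the 4, and TraesCSU02G253900 is high in UBQ drought.

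TraesCSU02G209500 fell in 3 genotypes and rose in DREM. It had 138.5, 397.6 and 397.9 in well-watered and 6.924 and 0.0 in drought WT, and 730.7 and 488.9 in well-watered and 0.0 in all 3 drought libraries of DEH2. In UBQ it went from 607.2, 662.3 and 751.7 to 224.3, 297.3 and 205.3, and in DREM from 86.48, 220.0 and 167.7 to 607.4, 730.2 and 978.2. The fall was 89.9-fold in WT, 2.78-fold in UBQ and at least 234-fold in DEH2 (3 reads per library in place of 0), and the rise in DREM 4.88-fold (limma adjusted p = 3.88e-07, 0.0356, 5.47e-09 and 0.00252). The size of the WT fall is uncertain, since the drought value of 6.924 is about 7.05 reads and the other is 0.0. Its neighbours by number, TraesCSU02G209300 and TraesCSU02G209400, were chosen after their values were seen and passed in the same directions in all 4 genotypes. TraesCSU02G209300 had 7632.3, 7860.8 and 8035.1 in well-watered and 476.0 and 418.1 in drought WT, and 3386.8, 3130.4 and 3503.2 in well-watered and 13623.8, 13959.7 and 14331.1 in drought DREM.

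Such likeness between neighbours was not general. Over the 22 libraries the median correlation of 179 pairs of members adjacent in number was 0.213, against -0.04 for 78 pairs farther apart, and chromosomes had medians of 0.106 to 0.432 for adjacent genes. All pairs share libraries and scaling, and these values are descriptions.

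In UBQ the largest rises were in TraesCSU02G005100 and TraesCSU02G258400. TraesCSU02G005100 went from 25.24, 19.80 and 8.756 to 3946.1, 3718.0 and 3553.9, a ratio of 209. It also rose in WT (3.53-fold), DREM (4.43-fold) and DEH2 (16.6-fold), and its log2 change in UBQ was larger than in WT by 5.93 ± 0.38 (limma adjusted p = 9.17e-10). TraesCSU02G258400 went from 2.465, 0.0 and 0.0 to 233.0, 237.6 and 218.5 (log2 change 7.25 ± 1.45, limma adjusted p = 0.000335).

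In DREM the largest rises were in TraesCSU02G156500 and TraesCSU02G100600, both at 0.0 in all 3 well-watered libraries. In drought TraesCSU02G156500 had 224.0, 252.7 and 294.8, at least 84.8-fold higher, and TraesCSU02G100600 had 161.0, 130.9 and 70.08, at least 39.8-fold higher (limma adjusted p = 1.35e-11 and 8.78e-06). In WT drought TraesCSU02G156500 had 0.9807 and 3.051, which did not pass (limma adjusted p = 0.0746). TraesCSU02G250000 was among the deepest falls in DREM, from 504.9, 382.0 and 426.6 to 7.067, 2.724 and 0.9429.

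In DEH2 the largest rises were in TraesCSU02G090400 and TraesCSU02G180500, both at 0.0 in the well-watered libraries. TraesCSU02G090400 had 90.12, 93.36 and 101.5 in drought, at least 33.1-fold higher. It also rose from 0.0 to 43.38, 42.90 and 43.57 in UBQ and to 85.15, 86.42 and 99.12 in DREM, while in WT it had 1.394, 0.0 and 0.0 well-watered and 1.917 and 0.0 in drought. Its drought effect was above that in WT by 5.12 in UBQ, 6.16 in DREM and 6.23 in DEH2 on the log2 scale (limma adjusted p = 3.81e-07, 1.63e-08 and 3.34e-08). TraesCSU02G180500 had 86.22, 141.3 and 69.29 in drought DEH2, at least 34.5-fold higher (limma adjusted p = 0.00508). In WT the largest rise was that of TraesCSU02G197800, with 0.0, 0.0 and 8.566 well-watered and 68.57 and 71.12 in drought (log2 change 5.06 ± 1.93, limma adjusted p = 0.0344), a call lost without WT well-watered replicate 1 or 2. Without 1 of these or either drought library, the log2 change was 4.52 to 5.09. The fits without a drought library leave 1 for WT drought, so they serve for the size of the change and do not show that the call holds. The WT drought library left out had 13.49, well below its sisters.

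Differences between the lines and WT in well-watered leaves were fewer than in drought. By limma 253 members differed from WT in UBQ (33.3% of all genes), 150 in DREM (23.6%) and 135 in DEH2 (17.9%) when well watered, which are 30.9%, 18.3% and 16.5% of the members. In drought 437 differed in UBQ (58.1% of all genes), 401 in DREM (55.9%) and 376 in DEH2 (55.6%), which are 53.3%, 48.9% and 45.9% of the members. The 4 drought comparisons and these 6 share libraries, and WT drought enters with 2. Against well-watered WT, 115 members were higher and 138 lower for UBQ, 61 and 89 for DREM, and 66 and 69 for DEH2. Against drought WT the numbers were 206 and 231, 204 and 197, and 169 and 207. Scaling to the same sum gave 121 higher and 55 lower in well-watered DREM, 78 and 58 in well-watered DEH2, and in drought 258 and 182 for UBQ, 314 and 129 for DREM and 215 and 171 for DEH2.

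TraesCSU02G187200 was the member most above WT in well-watered UBQ, at 126.9, 116.1 and 89.31 against 0.0, 1.431 and 4.027 for WT. TraesCSU02G137400 was most below, at 5.047, 3.493 and 7.504 against 44.02, 85.73 and 69.30 (limma adjusted p = 6.94e-10 and 9.08e-08). In well-watered DREM, TraesCSU02G122000 was higher, at 62.82, 41.07 and 54.04 against 1.471, 13.75 and 5.762. TraesCSU02G020600 was lower there, at 4.451, 9.770 and 3.298 against 319.8, 388.8 and 394.3, a 63.0-fold difference (adjusted p = 9.92e-06 and 1.73e-14). In drought TraesCSU02G020600 had 693.8, 618.6 and 646.7 in DREM, above the 156.3 and 198.1 of WT.

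In well-watered DEH2, TraesCSU02G201400 was higher than WT, at 69.12 and 77.81 against 0.0 in all 3 WT libraries (at least 16.4-fold, limma adjusted p = 1.13e-08). It was also present in DREM drought, at 55.79, 55.66 and 48.35, and listed at 0.0 in all 3 DEH2 drought libraries. TraesCSU02G045200 was lower, at 0.0 in both DEH2 libraries against 105.5, 118.0 and 143.3 (at least 42.6-fold, adjusted p = 0.0219), a call lost without either DEH2 library (adjusted p = 0.111 and 0.113) while the log2 change stayed at -6.93.

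In drought TraesCSU02G253900 stood highest above WT in UBQ, at 673.9, 691.9 and 731.7 against 0.0 and 1.022 (limma adjusted p = 8.59e-10). TraesCSU02G187100 was most below, at 322.9, 0.0 and 133.3 against 5975.0 and 6898.9 (0.000719). In DREM, TraesCSU02G209500 was 223-fold above WT and TraesCSU02G250000 114-fold below (limma adjusted p = 4.45e-08 and 3.09e-10). The 223-fold rests on WT values of 6.924, about 7.05 reads, and 0.0, so its size is uncertain. In DEH2, TraesCSU02G200400 was higher, at 542.8, 937.2 and 652.1 against 0.0 and 66.41, and TraesCSU02G186800 lower, at 176.0, 153.7 and 0.0 against 3937.2 and 3715.2 (0.000279 and 0.00179). The WT drought library left out had 363.0 for TraesCSU02G200400, above its sisters. TraesCSU02G187100 and TraesCSU02G186800 are close but not adjacent by number. Both were above 1000 in all well-watered groups and in WT drought, and at 696.8 or less in the drought libraries of the 3 lines. TraesCSU02G187200, nearer to TraesCSU02G187100 by number, differed, at 0.0 in WT drought and 24.02 to 31.16 in UBQ drought.

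The drought effect differed from that in WT for 400 members in UBQ (51.2% of all genes), 318 in DREM (43.5%) and 313 in DEH2 (46.2%), which are 48.8%, 38.8% and 38.2% of the members, by limma's test of the difference. Of these, 192 were positive and 208 negative for UBQ, 164 and 154 for DREM, and 146 and 167 for DEH2. Scaling to the same sum gave 245 and 160 for UBQ, 214 and 115 for DREM and 168 and 151 for DEH2, so that positive differences outnumbered negative ones in UBQ and DEH2 too. TraesCSU02G250000 had 765.8, 783.2 and 726.9 in well-watered and 361.8 and 450.9 in drought WT, but went from 3315.4, 3158.0 and 2738.4 to 4.638, 3.709 and 7.108 in UBQ, 596-fold lower. TraesCSU02G096900, chosen after its values were seen, rose in WT from 6146.2, 6646.2 and 6873.7 to 18319.7 and 17616.6 and fell in DREM from 5835.3, 5638.8 and 5314.5 to 1408.9, 1439.9 and 1535.3 (limma adjusted p = 1.08e-19 and 1.6e-24).

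Members listed at 0 in all 3 libraries of at least 1 group numbered 91 (11.1%, against 4.37% of all genes). TraesCSU02G085300 was the only member under 3 reads in every library of 1 or 2 groups and at 30 or more in all others: it was at 0.0 in the 3 UBQ drought libraries and at 42.92 to 194.5 in the 21 others (drought in UBQ, limma adjusted p = 2.11e-20). The pairing of DEH2 well-watered with DREM drought seen at the start of chromosome 1B also appeared in TraesCSU02G201400, described above, which had at most 5.31 outside these groups. By the 4-fold rule given below it appeared in 4 more members, chosen after their values were seen. TraesCSU02G063900 had 20.83, 26.99 and 17.98 in DEH2 well-watered and 37.52, 31.52 and 29.24 in DREM drought and was at 0.0 in the 18 others, and TraesCSU02G193900 was also highest in these groups. TraesCSU02G216100 was at 0.0 in these 6 libraries and in WT well-watered replicate 3, and TraesCSU02G237900 had 10.64 to 14.22 and 39.66 to 48.45 there against 95.26 or more elsewhere. Over all genes 60 (0.0999%) were at least 4-fold above the regime's median group in both and within 2-fold elsewhere. At least 4-fold below by the same rule were 247 (0.411%). The members were 2 of each, 0.244% of the members in each direction, so the pairing is not shown to be particular to them.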

How the data were processed

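RNA was purified with a Qiagen RNeasy kit, and TruSeq libraries were sequenced as paired ends with 150 cycles on an Illumina instrument, per the labels' protocols. The deposited table holds normalized counts by gene, treated as a signal because the authors had already scaled the libraries. CASAVA, Trimmomatic, STAR, Salmon and DESeq2 are listed, without versions or roles, per the submitters' processing notes; the sources used here name no genome build or annotation. The series' design text names 27 samples, re-watering and other genotypes, which does not match the 24 labels, so groups come from the sample titles. All libraries have 1 batch label.

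The value of 1 read was 0.651 to 1.54 per library, read from genes present in 1 library only, of which 93.0% to 99.5% were whole multiples within 0.01. Over all genes 2.03% to 12.9% were whole, so no count model was fitted. A value of 0 allows up to 3 reads, 1.95 to 4.63. None of the identifiers matched the 155467 genes of the RefSeq table (assembly IWGSC CS RefSeq v2.1), so TOR and tissue markers could not be checked.

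In R 4.3.3, limma 3.58.1 was fitted once to log2(value + 1) of 60088 genes in 8 groups and 22 libraries, with an intensity trend and robust prior, leaving out WT drought replicate 1 and DEH2 well-watered replicate 1. Tests were two-sided with Benjamini-Hochberg adjustment within each of 13 comparisons. Log2 changes on this scale understate changes of low genes; "fold" is a ratio of group means. SE is that of the fit, and SD is over libraries. Other tables used the R package data.table, version 1.17.8, Python 3.11.15, pandas 2.3.3, numpy 2.4.6, scipy 1.17.1 and matplotlib 3.10.9. The steps were tested on simulated data.

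The members, lists and rules were chosen with earlier results of these data known. Named genes are the 6 with the highest mean and members missing from a group. Also named are the 4 highest and 2 lowest in value against sisters in the 2 libraries that stand apart. Each drought comparison adds up to 2 rising and 2 falling members, and other comparisons 1 each way. These had the largest change among called members without overlap of groups and with a mean of at least 50 in the higher group. For differences of the drought effect from that in WT, overlap was allowed and the mean of 50 could be in any group. Alternatives were other pseudocounts, filters, scalings, priors, array weights, all 24 libraries, each library left out and a replicate block.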

Additional observations from a re-analysis of the deposited data

Results flagged for a closer look

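For 6 members the drought effect in a line differed from that in WT by limma's test of the difference (Benjamini-Hochberg adjusted p under 0.05). These were the largest such differences each way among called members with a mean of at least 50 in any group compared. In UBQ, the difference was 8.20 ± 0.95 on the log2 scale for TraesCSU02G253900 (adjusted p = 3.58e-07), which rose in UBQ from 13.86, 22.15 and 14.98 to 673.9, 691.9 and 731.7 and fell in WT from 5.856, 16.80 and 8.639 to 0.0 and 1.022. It was -8.09 ± 0.53 for TraesCSU02G250000 (1.65e-09). In DREM it was 8.995 ± 0.893 for TraesCSU02G209500 (6.64e-07), which rose in DREM and fell in WT.

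The other 3 calls were lost in fits with 1 library fewer, with the direction kept. For TraesCSU02G181000 in DREM the difference was -7.61 ± 2.3 (adjusted p = 0.0136), with 27.61 and 144.2 in WT drought and 0.0, 0.0 and 29.06 in WT well-watered, and it was lost without WT drought replicate 3 (-6.44, adjusted p = 0.068). For TraesCSU02G045200 in DEH2 it was 8.00 ± 2.7 (0.027), lost in 5 of the fits that leave out a library, where it was 5.63 to 8.00. For TraesCSU02G197800 in DEH2 it was -8.17 ± 2.7 (0.0232), lost in 3 such fits, where it was -8.19 to -5.06, and the DEH2 well-watered libraries used had 73.32 and 0.0.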

How the results depend on the processing

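Under the alternatives every count of called members stayed within 1.5 times the reported count. The replicate numbers did not pair the libraries (correlation of deviations -0.027 to 0.038 in 12 pairs, none over 0.1, 4 libraries best with their own number); with the replicate block, 392, 547, 492 and 471 members were called for drought in WT, UBQ, DREM and DEH2, and the share difference was 0.42 points. Leaving out 1 library gave 336 to 409, 511 to 549, 459 to 493 and 412 to 481 called members in the same order, and a share difference of 0.301 to 0.419. That difference reversed to -0.16 without the 50 most abundant genes and was 0.113 without the 6 members with the most reads. It was 0.154 for the 54 members that stood apart alone, an alternative chosen after seeing the data. The count of members above both sisters in WT drought replicate 1 was 27 among those with a mean of at least 30; in DEH2 well-watered replicate 1 it was 49 at 2-fold, 9 at 8-fold and 12 at a mean of at least 30. Log2 changes that reversed were those of TraesCSU02G056800, TraesCSU02G249800 and TraesCSU02G263900 with all 24 libraries in WT (0.913, 0.942 and 0.853) and without UBQ drought replicate 3 in UBQ (-0.35, -0.291 and -0.309), none of them past the threshold, while leaving out UBQ drought replicate 2 gave the other end, 0.693, 0.574 and 0.635; and, with scaling to the same sum, TraesCSU02G249800 (0.118) and TraesCSU02G263900 (0.223) in DREM and TraesCSU02G270000 in UBQ (0.324), DREM (0.363) and DEH2 (0.164). The cause was not tested. Members with few reads were called less often, and a value of 0 does not exclude up to 3 reads.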
